A study of Mus musculus with 39 samples.

Results

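The cytosolic ribosomal protein genes were examined as a set of 70 probe sets of 25429 on the array. A probe set was taken when its symbol began with *Rpl* or *Rps* followed by a digit, or was *Rplp0*, *Rplp1*, *Rplp2* or *Rpsa*. Symbols with "-ps" and the S6 kinases were left out. By their names, 55 of the 70 are ribosomal proteins, 33 of the large and 22 of the small subunit, 7 are paralogs with a protein of their own (*Rpl3l*, *Rpl7l1*, *Rpl10l*, *Rpl22l1*, *Rpl36al*, *Rpl39l* and *Rps27l*), 7 are further gene copies (*Rpl6l*, *Rps3a2*, *Rps3a3*, *Rps4l*, *Rps12l1*, *Rpl32l* and *Rps23rg1*), and 1, *Rps19bp1*, encodes a nuclear protein that binds Rps19 and is no part of the ribosome. The samples were amygdala, cortex, hippocampus and hypothalamus punched from the brains of naive male mice. Control mice carried the floxed *Pianp* allele, derived from Pianptm1a(KOMP)Wtsi through an ACTFLPe deleter, so that they carried loxP sites as well. PianpKO mice had that allele deleted in all tissues after a cross to CMV-cre mice. Whether this cross left other differences between the genotypes, in the Cre transgene or the background, is not stated. The labels give no age, and the study's methods give only a broad range of adult ages, shared by several kinds of experiments. Each of the 8 groups held 5 mice, except for the control amygdala with 4, and the 4 regions of a genotype came from the same 5 mice, since the labels give each animal 1 number that recurs in every region.

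Ribosomal proteins assemble with ribosomal RNA in the nucleolus and form the large and the small subunit, which join on an mRNA to translate it. Their mRNAs begin with a short run of pyrimidines at the cap, and through this run their translation, and that of elongation factor mRNAs, responds to mTOR signaling. Neurons make ribosomal proteins in large amounts and carry some of their mRNAs into dendrites and axons. Many introns of these genes hold small nucleolar RNAs, which guide the modification of ribosomal RNA. The genes have numerous processed pseudogenes, so that array probes for them often match several places in the genome.

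*Pianp* separated the genotypes in every sample, with log2 values between 7.08 and 8.16 in 19 control and between 5.10 and 6.17 in 20 PianpKO samples. Arrays of the same group correlated at 0.989 to 0.996, and array medians lay between 4.62305 and 4.62315. The summed cortical markers were highest in the cortex and the summed hippocampal markers in the hippocampus. Of the cortical markers, *Rasgrf2* was lower in the cortex (9.27) than in the amygdala (9.88) and hypothalamus (9.81). The summed hypothalamic markers were nearly as high in the amygdala as in the hypothalamus. Their medians in control mice were 10.16 and 10.43 (log2 of the summed signal). Among them *Pmch* (8.90 against 6.26), *Hcrt* (5.12 against 4.34) and *Pomc* (5.47 against 5.03) were higher in the amygdala. *Gpr165*, *Sim1*, *Otp* and *Nkx2-1* were higher in the hypothalamus. The summed amygdala markers were highest in the hippocampus (11.24 against 9.92 in the control amygdala), so the sum did not single out the amygdala samples. By means over both genotypes, *Prkcd* (10.21 against 6.33 in the amygdala) and *Sema5a* (9.25 against 8.28) were higher in the hippocampus. *Rspo2*, *Tfap2d*, *Dlk1* and *Etv1* were higher in the amygdala than in the hippocampus (7.30, 4.37, 7.47 and 8.17 against 6.61, 4.12, 6.03 and 7.99). Of these, *Rspo2* was higher still in the cortex (7.64) and *Dlk1* in the hypothalamus (8.20), whereas *Tfap2d* and *Etv1* were highest in the amygdala.

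The members differed widely in how much signal their probe sets carried. The means over all 39 samples ran from 3.14 to 11.55 on the log2 scale, and 36 of 70 members, among them 31 of the 55 ribosomal proteins, lay below the median of all probe sets of 4.62. *Rplp0*, the scaffold of the stalk that recruits elongation factors, had a mean of 3.87, and *Rpl3*, a core protein of the large subunit, 3.55, although every cell translates with both. A low value of a probe set was therefore not read as a low mRNA level, and levels of different genes were not set against each other. A mean above 6 was reached by 18 members, called bright here, and by 36.5% of all probe sets. These 18 members were *Rplp1*, *Rpl4*, *Rpl22l1*, *Rps21*, *Rpl8*, *Rps9*, *Rpl6l*, *Rps3a3*, *Rpl15*, *Rpl27a*, *Rpl31*, *Rps3*, *Rps19bp1*, *Rpl29*, *Rpl23*, *Rps15a*, *Rps4l* and *Rps27l*. *Rpl6l* (8.97) and *Rps3a3* (8.88) are annotated as pseudogenes of *Rpl6* and *Rps3a1*, so signal from the parental mRNA cannot be told apart from their own here, and the same holds for the other copies.

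The sequences around the annotated transcription start are given to show where a pyrimidine run lies and where none was found, for the 9 bright ribosomal protein genes with an entry in the RefSeq promoter table (GRCm38.p6). Each window holds 30 bases before and 30 bases from the start on, on the strand of the gene, and capitals mark runs of at least 8 pyrimidines (C or T).
Rpl4, chr9:64173357-64173416, plus strand: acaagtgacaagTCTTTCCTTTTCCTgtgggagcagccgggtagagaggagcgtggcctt
Rpl15, chr14:18270957-18271016, minus strand: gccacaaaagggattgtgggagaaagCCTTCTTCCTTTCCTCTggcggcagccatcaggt
Rpl27a, chr7:109519165-109519224, plus strand: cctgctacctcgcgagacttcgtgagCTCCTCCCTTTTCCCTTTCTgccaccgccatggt
Rpl31, chr1:39367821-39367880, plus strand: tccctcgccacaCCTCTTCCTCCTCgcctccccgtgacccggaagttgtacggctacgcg
Rps15a, chr7:118116118-118116177, minus strand: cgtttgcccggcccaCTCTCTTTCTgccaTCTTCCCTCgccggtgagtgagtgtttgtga
Rps9, chr7:3704011-3704070, plus strand: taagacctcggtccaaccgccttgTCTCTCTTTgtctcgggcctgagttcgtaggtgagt
Rpl23, chr11:97782410-97782469, minus strand: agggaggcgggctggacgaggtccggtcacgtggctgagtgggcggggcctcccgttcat
Rps3, chr7:99483680-99483739, minus strand: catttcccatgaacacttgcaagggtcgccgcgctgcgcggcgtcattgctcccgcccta
Rps21, chr2:180257349-180257408, plus strand: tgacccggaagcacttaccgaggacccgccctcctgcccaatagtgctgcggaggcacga

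A run of at least 8 pyrimidines on the sense strand was present in 6 of these 9 windows, with a longest run of 20 bases in *Rpl27a* and 17 in *Rpl15*. In 4 windows (*Rpl15*, *Rpl27a*, *Rps15a* and *Rps9*) a run covered the annotated start, in 2 (*Rpl4* and *Rpl31*) it ended before it, and 3 (*Rpl23*, *Rps3* and *Rps21*) held none. Of the 53 members with an entry, 21 (39.6%) held such a run, compared with 6150 of 27025 genes (22.8%) with an entry, using the first listed start of each gene. The letters CTTTCC, searched on both strands and overlapping with the pyrimidine run, occurred in 7 of the 53 members (13.2%) and in 5.35% of all genes. No entry was used for 17 members, and *Rps21* has 2 entries.

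The clearest pattern among the members was a difference between brain regions. *Rpl8*, a protein near the catalytic center of the large subunit, was higher in the hypothalamus and lower in the cortex, in both genotypes. In control mice the values were 10.23, 10.16, 10.03, 10.19 and 9.95 in the hypothalamus and 9.60, 9.88, 9.74, 9.77 and 9.75 in the cortex. In PianpKO mice they were 10.12, 10.13, 10.01, 10.11 and 9.97 in the hypothalamus and 9.77, 9.89, 9.63, 9.68 and 9.62 in the cortex. The lowest hypothalamic value lay above the highest cortical value in either genotype. The hypothalamus differed from the mean of the other 3 regions by 0.25 ± 0.05 (SE) on the log2 scale in control and by 0.23 ± 0.05 in PianpKO mice (limma, adjusted p = 0.00241 and 0.00154), and the cortex by -0.23 ± 0.05 and -0.24 ± 0.05 (adjusted p = 0.00374 and 0.000655). *Rpl8* kept these calls when any 1 mouse was left out. The genotype did not change its regional profile detectably (limma interaction, unadjusted p = 0.326).

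*Rpl4*, which lines the exit tunnel of the nascent chain, showed a smaller difference. Its hypothalamic values were 11.72, 11.57, 11.54, 11.56 and 11.61 in control mice and 11.57, 11.64, 11.54, 11.50 and 11.69 in PianpKO mice. The cortical values were 11.43, 11.50, 11.38, 11.45 and 11.39 in control mice and 11.45, 11.53, 11.45, 11.43 and 11.45 in PianpKO mice. Hypothalamus and cortex thus did not overlap in control mice and overlapped in PianpKO mice. The hypothalamus exceeded the other regions by 0.13 ± 0.04 (SE) and 0.12 ± 0.03 (limma, adjusted p = 0.0195 and 0.0221). This call was lost without control mouse 1, 3 or 5 (lowest difference 0.10, adjusted p = 0.162) and without PianpKO mouse 1, 2 or 5 (lowest difference 0.09, adjusted p = 0.196).

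*Rpl6l*, the copy of *Rpl6*, followed the profile of *Rpl8*. The group means were 9.21 ± 0.13 (SD, n = 5) in the control hypothalamus, 9.07 ± 0.11 (SD, n = 4) in the amygdala, 8.93 ± 0.04 in the hippocampus and 8.82 ± 0.09 in the cortex (SD, n = 5 each). In PianpKO mice the means were 9.07 ± 0.07, 9.01 ± 0.13, 8.88 ± 0.13 and 8.79 ± 0.08 in the same order (SD, n = 5 each). Hypothalamus and amygdala differed by less than their combined SD in both genotypes. The contrasts of the hypothalamus (0.27 ± 0.05 and 0.18 ± 0.05 (SE), limma, adjusted p = 0.000966 and 0.0275) and of the cortex (-0.25 ± 0.05 and -0.20 ± 0.05, adjusted p = 0.00188 and 0.0113) were called in both genotypes. In PianpKO mice the hypothalamic call was lost without mouse 1, 2 or 5 (lowest difference 0.14, adjusted p = 0.181) and the cortical call without mouse 1 or 3 (lowest size at -0.16, adjusted p = 0.0675).

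*Rpl21*, a large subunit protein, had another profile and was higher in the hippocampus. Control values were 5.50, 5.53, 5.81, 5.05 and 5.30 in the hippocampus, and they lay between 4.89 and 5.26 in the other 3 regions. PianpKO values were 5.80, 5.89, 5.49, 6.16 and 5.62 in the hippocampus, and the highest value elsewhere was 5.87. The hippocampal range thus overlapped with the other regions in both genotypes. The contrast was 0.37 ± 0.08 (SE) in control and 0.43 ± 0.13 in PianpKO mice (limma, adjusted p = 0.00467 and 0.0361), and the call was lost without control mouse 2 (0.34, adjusted p = 0.0532) and without PianpKO mouse 1, 2, 4 or 5 (lowest 0.35, adjusted p = 0.134).

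**Figure D1:**
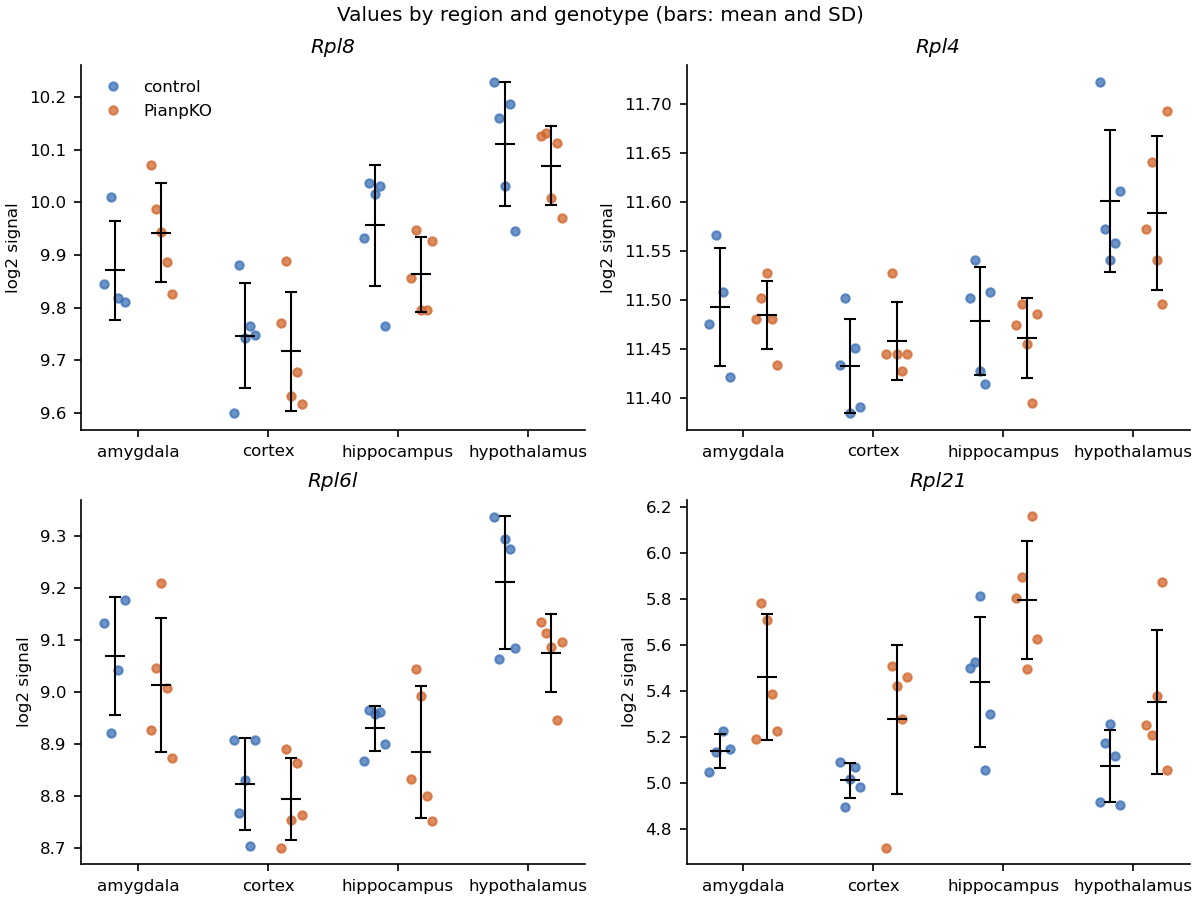
Log2 signal of Rpl8, Rpl4, Rpl6l and Rpl21 (y axis) by region (x axis) in control (blue) and PianpKO mice (orange). Each point is 1 sample, and black bars give the mean and the SD of 5 mice (4 in the control amygdala). Rpl8, Rpl4 and Rpl6l had their highest means in the hypothalamus, and Rpl21 in the hippocampus.

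Across the set, region differences were called for fewer members than for the array as a whole. In control mice the F test over the 4 regions passed for 10 of 70 members (14.3%), beside 27.6% of all probe sets, and in PianpKO mice for 5 members (7.14%), beside 26.9%. Among the bright members 5 of 18 (27.8%) passed in each genotype, beside 51.1% and 50.6% of the probe sets with a mean above 6. Only *Rpl6l* and *Rpl8* passed in both fits, and 13 members passed in either one, 8 of them bright. The hypothalamus was called higher for 7 members in control mice (8.18% of all probe sets) and for 4 in PianpKO mice (7.18%). The cortex was called lower for 3 members in each genotype (9.49% and 9.72%). The 3 shared calls of the hypothalamus were *Rpl4*, *Rpl6l* and *Rpl8*, the 2 of the cortex *Rpl6l* and *Rpl8*, and *Rpl21* was the 1 shared call of the hippocampus. None was shared in the amygdala. These counts depended on single animals. With 1 mouse left out, the F test passed for 3 to 9 members in control and 1 to 7 in PianpKO mice (lowest without mouse 1 in both, and 2 without PianpKO mouse 5), and the hypothalamus was called higher for 3 to 7 (3 without mouse 1, 4 without mouse 5) and 1 to 4 members (1 without mouse 1, 2 or 5).

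Calls made in control mice alone included *Rps3a2* (0.74 ± 0.17 (SE), limma, adjusted p = 0.00402) and *Rps3a3* (0.41 ± 0.11, adjusted p = 0.0102), both copies of *Rps3a1*, together with *Rplp0* (0.38 ± 0.11, adjusted p = 0.02) in the hypothalamus. *Rpl5*, which carries the 5S ribosomal RNA, ran the other way, with 0.42 ± 0.14 in the control cortex and -0.43 ± 0.14 in the control hypothalamus (limma, adjusted p = 0.0349 and 0.0375). In PianpKO mice the same contrasts of *Rpl5* were 0.31 ± 0.14 and -0.12 ± 0.14 and did not pass. *Rps9*, a small subunit protein with a part in decoding accuracy in yeast, passed in PianpKO mice alone, with 0.19 ± 0.06 in the hypothalamus and -0.18 ± 0.06 in the cortex (limma, adjusted p = 0.03 and 0.0322). Its values in control mice were 0.15 ± 0.06 and -0.12 ± 0.06. The difference between genotypes was not called for any of these members.

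Comparison within each mouse showed the direction of the regional difference in single animals. The hypothalamus exceeded the cortex in 10 of 10 mice for 5 of the 18 bright members, namely *Rpl4*, *Rpl6l*, *Rpl8*, *Rps9* and the small subunit gene *Rps21*, beside 18.3% of all probe sets with a mean above 6. The median difference was 0.35 on the log2 scale for *Rpl8*, a ratio of 1.28, with a range of 0.20 to 0.63. *Rps21* had a median of 0.25 (ratio 1.19) and a wider range of 0.10 to 1.03. *Rplp1*, *Rps3* and *Rps3a3* were higher in the hypothalamus in 9 of 10 mice. *Rpl29* and *Rps19bp1* went the other way and were higher in the cortex in 9 of 10 mice, with medians of -0.30 and -0.12. The remaining 8 bright members were higher in the hypothalamus in 3 to 7 mice.

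**Figure D2:**
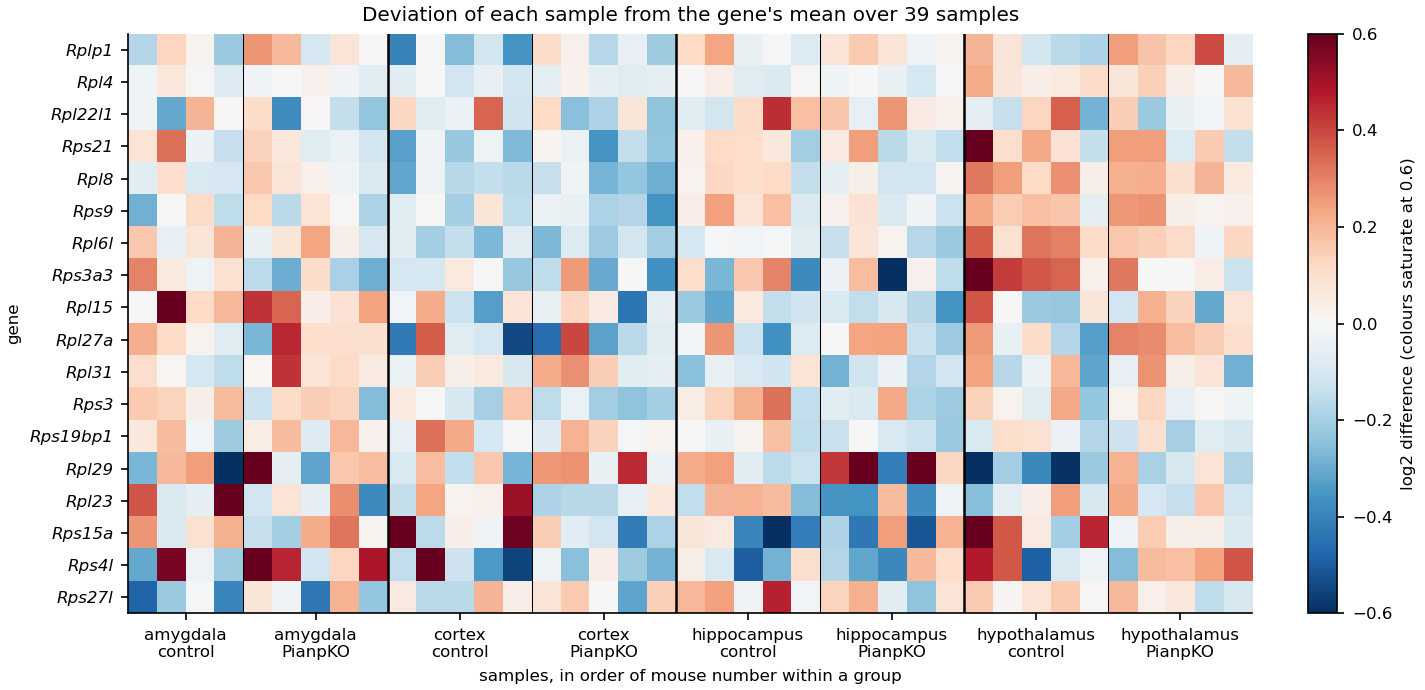
Deviation of each of the 39 samples (columns, grouped by region and genotype and ordered by mouse number) from the gene's mean over all samples, on the log2 scale, for the 18 members with a mean above 6 (rows). Red is higher and blue is lower than the mean. Rpl8, Rpl6l and Rps21 were blue in most cortical and red in most hypothalamic samples.

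The mean deviation over the 18 bright members summarizes this per sample. In control mice its group medians were -0.08 (cortex), -0.003 (hippocampus), 0.02 (amygdala) and 0.05 (hypothalamus). In PianpKO mice they were -0.12, -0.06, 0.08 and 0.05 in the same order. Control values ranged from -0.07 to 0.23 in the hypothalamus and from -0.09 to 0.08 in the cortex, and PianpKO values from -0.01 to 0.11 and from -0.15 to 0.04, so the regions overlapped between animals. Within the same mouse the hypothalamus was above the cortex in 10 of 10 mice, by 0.003 to 0.31 with a median of 0.12. The summed neuron markers were lowest in the hypothalamus (median 14.29 in control mice) and highest in the cortex (14.57), and the astrocyte markers were lower in the cortex (13.03 against 13.26 in the control hypothalamus). Against these sums, *Stmn2* was higher in the hypothalamus than in the cortex (11.30 against 11.15) and *Aldh1l1* lower (7.54 against 7.59), by means over both genotypes. Choroid plexus (8.38 against 10.67) and blood markers (5.31 against 6.25) were also lower in the control cortex than in the control hypothalamus. The part of cell composition in the regional difference was not tested, and in punches of tissue a change in the share of a cell type and a change in RNA per cell cannot be told apart.

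The median contrast of the bright members rested in part on single animals. In the hypothalamus it was 0.08 in control and 0.12 in PianpKO mice, against -0.006 and -0.004 for all probe sets, and without control mouse 1 the control value was -0.01. That mouse had the highest hypothalamic mean, 0.23. In the cortex the median contrast was -0.08 and -0.10, against 0.007 and 0.003 for all probe sets, and without control mouse 4 the control value was -0.03. The 52 dim members had medians between -0.03 and 0.01 in these 4 contrasts.

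Beyond region, the bright members varied between mice. Mouse number 5 had the lowest mean in 7 of 8 groups, and mouse number 2 the highest in 5 of 8. Control and PianpKO mice with the same number are different animals. After removal of the group means, pairs of bright members correlated at 0.135 on average over the 39 samples, pairs of dim members at 0.0198, and pairs of the 9276 other probe sets with a mean above 6 at 0.000343. All these pairs share the same arrays, and the part of RNA quality or array processing was not tested. The arrays were normalized by quantiles, which leaves little room for a shared shift over so large a set of probe sets. The average of 0.000343 is therefore low by construction and gives no baseline for a small set of related genes. Whether other sets of the same size as the bright members correlate as much was not tested. Without both mice numbered 5, the hypothalamus was called higher for 4 members in control and 1 in PianpKO mice.

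**Figure D3:**
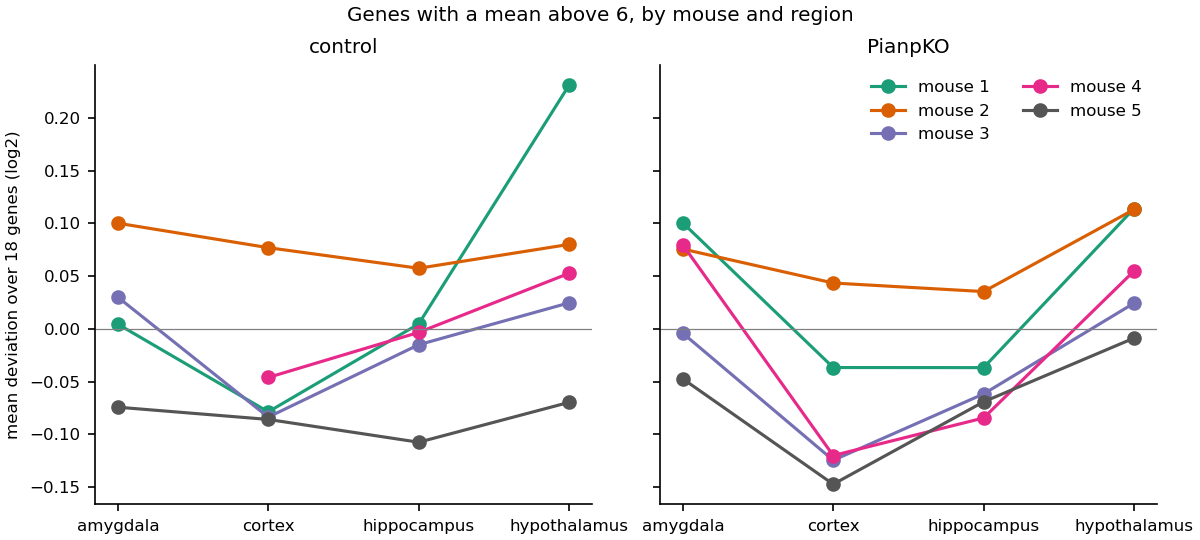
Mean deviation over the 18 members with a mean above 6 (y axis, log2) in each region (x axis), with 1 line per mouse, in control (left) and PianpKO mice (right). Control mouse 4 has no amygdala value. Each line lies higher in the hypothalamus than in the cortex, and the line of mouse 5 lies lowest in all groups but the PianpKO hippocampus.

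Loss of *Pianp* changed no member past the threshold. After adjustment over all probe sets (limma), 0 of 70 members differed between PianpKO and control mice in the amygdala, cortex, hippocampus or hypothalamus, beside 0.00787%, 0.0157%, 0.00393% and 0.00393% of all probe sets. At an unadjusted p under 0.05, 6, 7, 6 and 8 members passed, beside 8.07%, 11.2%, 5.08% and 5.55% of all probe sets. With 1 mouse left out, these counts ran from 5 to 9, 8 to 14, 4 to 12 and 6 to 11, with the highest in the cortex without control mouse 2 and in the hippocampus without PianpKO mouse 3. The cortex also gave 11 without control mouse 4 or PianpKO mouse 2, and the hippocampus 10 without control mouse 5. The methods' test on the same samples also called 0 members after adjustment, and 4, 6, 4 and 3 without it. The groups did not overlap for 2, 0, 0 and 1 members, beside 2.46%, 2.11%, 0.775% and 0.936% of all probe sets. The median log2 fold change of the 70 members was 0.0015 (amygdala), 0.0017 (cortex), -0.02 (hippocampus) and -0.01 (hypothalamus), beside medians of -0.0034, -0.0014, 0.00 and -0.0025 over all probe sets. The median standard error of a member was 0.12 in the amygdala, cortex and hypothalamus and 0.13 in the hippocampus, which sets the size of difference that could be detected for a typical member. The bright members had a lower median standard error of 0.10 in each region.

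The genotype effect did not differ between regions for any member after adjustment (limma interaction, 0 of 70, beside 0% of all probe sets), and 3 members, *Rpl36al*, *Rpl3l* and *Rplp0*, had an unadjusted p under 0.05 (5.15% of all probe sets). The mean effect over the 4 regions, a contrast added after the data were seen, passed for 0 members after adjustment (0.319%) and for 12 without it (14.6%). The leading member was *Rpl21*, with a mean difference of 0.31 ± 0.09 (SE, limma, adjusted p = 0.0992). It was higher in PianpKO mice by 0.36 (hippocampus), 0.32 (amygdala), 0.28 (hypothalamus) and 0.27 (cortex), with overlapping groups in each. *Rpl41*, the smallest ribosomal protein, had differences of -0.39, -0.23, -0.31 and -0.26 in the same order (mean -0.30 ± 0.09, limma, adjusted p = 0.114).

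In the amygdala, *Rps28* and *Rpl37* were the 2 members whose groups did not overlap. *Rps28*, a small subunit protein mutated in Diamond-Blackfan anemia in humans, had values of 3.89, 3.84, 4.21 and 3.85 in control and 3.26, 3.65, 3.66, 3.54 and 3.62 in PianpKO mice. *Rpl37*, a large subunit protein, had 4.18, 4.51, 4.22 and 4.48 in control and 3.95, 3.83, 4.07, 3.86 and 4.15 in PianpKO mice. Each PianpKO value was thus below each control value, in a range of low signal. The differences were -0.40 ± 0.11 and -0.38 ± 0.10 (SE), with a limma adjusted p of 0.506 each. The two-sided exact permutation p was 0.0159 each, the smallest that 4 against 5 samples allow. Groups without overlap always give this smallest value, so it adds nothing to the lack of overlap. *Rps28* was also lower in the hypothalamus, by -0.49 ± 0.20, with overlapping groups (exact permutation p = 0.0556), and differed by 0.02 in the cortex and -0.05 in the hippocampus. Other members with an unadjusted p under 0.05 in the amygdala were *Rpl7l1* (-0.34), *Rps3a3* (-0.27), *Rpl21* (0.32) and *Rps15* (0.20), with overlapping groups. Of these, *Rps3a3* was the bright member.

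In the hypothalamus, *Rpl29*, a large subunit protein also known to bind heparin, was the 1 member without overlap. Its values were 6.02, 6.47, 6.29, 6.09 and 6.46 in control and 6.89, 6.49, 6.59, 6.76 and 6.50 in PianpKO mice. The gap between the groups was narrow, as 6.47 and 6.49 were next to each other. The difference was 0.38 ± 0.11 (SE, limma adjusted p = 0.801). The exact permutation p of 0.00794, the smallest that 5 against 5 samples allow, follows from the lack of overlap. The differences in the other regions, 0.38, 0.21 and 0.32 in amygdala, cortex and hippocampus, came with overlapping groups. *Rps3a2* had the largest difference of all members in the hypothalamus, -0.80 ± 0.27, with control values of 6.35, 4.84, 5.26, 5.55 and 4.79 against 4.90, 4.47, 4.84, 4.11 and 4.46. It was -0.55 without control mouse 1, which held the value of 6.35. The other members named for the hypothalamus were *Rps3a1* (0.43), *Rpl27a* (0.24) and *Rpsa* (-0.39), the last a small subunit protein that also serves as a laminin receptor. *Rps3a3* had the lowest difference of the bright members there, -0.37, with overlapping groups.

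In the cortex, *Rpl23a*, a protein at the exit of the nascent chain, differed by -0.55 ± 0.21 (SE), with 5 control values between 3.98 and 5.06 against 5 PianpKO values between 3.43 and 4.28. *Rplp0* differed by 0.35 ± 0.11, with 3.73, 3.68, 3.65, 3.86 and 3.33 against 4.03, 4.32, 3.98, 3.74 and 3.97. The groups overlapped for both (exact permutation p = 0.0556 and 0.0159). *Rpl39l* differed by -0.42 and *Rpl37a* by -0.29, and *Rpl35a*, linked to Diamond-Blackfan anemia in humans, by 0.27. Without control mouse 2, *Rpl39l* was at -0.53 with a limma adjusted p of 0.0463, the 1 member and the 1 left-out animal with which any genotype call was made within a region.

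In the hippocampus, *Rpl36al* differed by -0.39 ± 0.13 (SE), with 5.42, 5.01, 5.31, 5.30 and 5.06 in control and 4.64, 5.03, 4.62, 5.23 and 4.62 in PianpKO mice (exact permutation p = 0.0397). In PianpKO mice 3 values lay below all control values and 2 within their range. *Rpl5* differed by -0.29, *Rps19*, the gene most often mutated in Diamond-Blackfan anemia, by -0.28, *Rpl21* by 0.36 and *Rpl17* by 0.25, with overlapping groups for each.

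**Figure D4:**
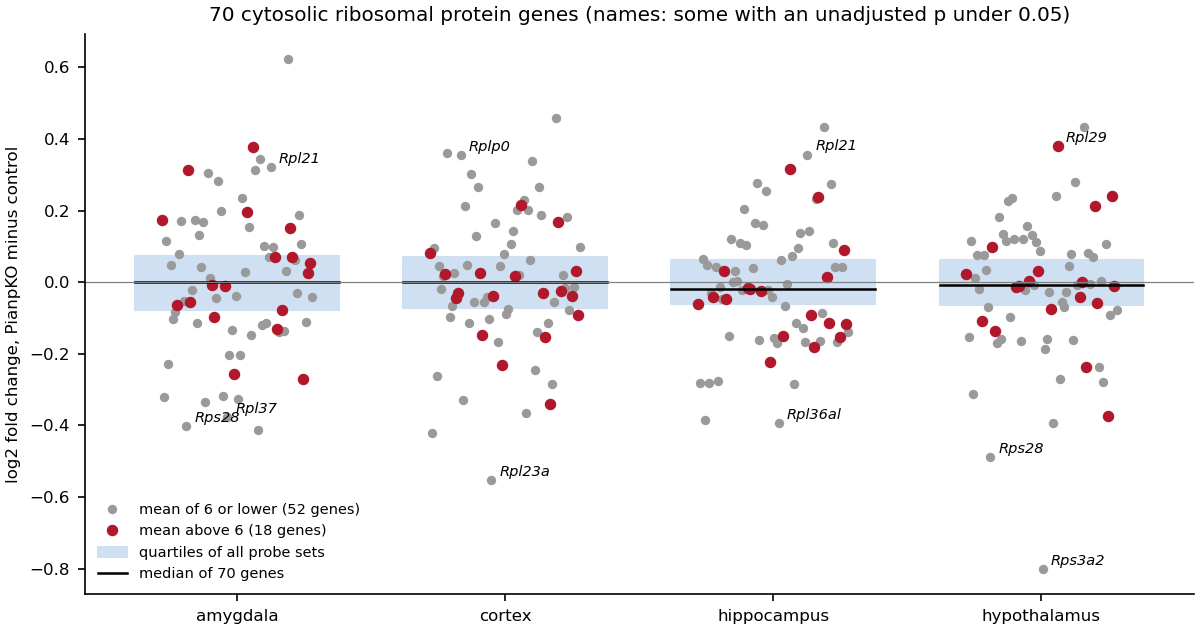
Log2 fold change of PianpKO minus control (y axis) for the 70 members in each region (x axis). Red points are the 18 members with a mean above 6, grey points the other 52, black lines the median of the 70, and blue bands the quartiles of all probe sets. The medians lie at or near 0 in each region, and the highest and the lowest point of each region are grey.

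Grouped by role, the members lay on both sides of 0. Of the 33 large subunit genes 18 to 20 were higher in PianpKO mice in each region (medians of 0.02 to 0.03), and of the 22 small subunit genes 9 to 11 (medians of -0.03 to 0.003). A list of 16 genes, drawn mostly from those linked to Diamond-Blackfan anemia and not holding *Rps28*, had 10 measured genes. At an unadjusted p under 0.05, 0, 2, 0 and 1 of them were higher and 0, 0, 2 and 1 lower in amygdala, cortex, hippocampus and hypothalamus, where 8.07%, 11.2%, 5.08% and 5.55% of all probe sets passed in either direction. The stalk was represented by *Rplp0* and *Rplp1*. *Rplp1* differed by 0.15, 0.17, 0.02 and 0.21 in the 4 regions, and none had an unadjusted p under 0.05. Of 15 measured genes of 16 in families with a paralog, 0 were higher and 1, 2, 1 and 0 were lower at an unadjusted p under 0.05, beside the same shares of all probe sets, with medians of 0.03, -0.04, -0.02 and -0.01. *Rpl22l1*, the paralog of *Rpl22*, was bright and its differences lay between -0.15 and -0.01. *Rpl7l1*, linked to ribosome biogenesis, was at -0.34 ± 0.11 (SE) in the amygdala, and *Rpl3l*, the striated muscle form of *Rpl3*, at -0.25 ± 0.07 in the cortex (limma, adjusted p = 0.556 and 0.249). *Rpl10l*, a testis form of *Rpl10*, stayed between -0.09 and 0.03. *Rps27l* lay between -0.15 and 0.20 and *Rps19bp1*, the gene that is no ribosomal protein, between -0.12 and 0.07.

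Genes that act with the ribosome were counted beside the members. In the hypothalamus 2 of 13 measured elongation and initiation factors and other mTOR-responsive genes were higher in control and 5 in PianpKO mice (8.18% and 7.18% of all probe sets), and in the cortex 4 and 3 were lower (9.49% and 9.72%). Of 24 ribosome biogenesis factors, 1 and 4 were higher and 3 and 4 lower in the hypothalamus, and of 15 genes of the mTOR pathway 0 and 0 were higher and 2 and 1 lower (8.19% and 7.37% of all probe sets were lower). Most genes of these lists had a mean above 6 (11 of 13, 23 of 24 and 11 of 15). Of the 9294 probe sets with such a mean, 1574 in control and 1663 in PianpKO mice were called lower in the cortex. In the hypothalamus 1415 and 1342 of them were called higher and 1537 and 1477 lower. *Bysl*, which acts in small subunit assembly, was at -0.36 ± 0.07 (SE) and -0.28 ± 0.06 (limma, adjusted p = 0.000997 and 0.00133), and *Eif4ebp1*, the translation repressor under mTOR control, at -0.39 ± 0.09 and -0.37 ± 0.11 (adjusted p = 0.00582 and 0.0306). *Nop58* of the box C/D small nucleolar RNPs was at 0.27 ± 0.07 and 0.26 ± 0.05 (adjusted p = 0.00924 and 0.00171). *Eef2*, which moves the ribosome along the mRNA, exceeded the other regions in the hypothalamus by 0.13 ± 0.04 (SE) and 0.13 ± 0.04 (limma, adjusted p = 0.0171 and 0.0189), and the initiation factor *Eif4b* by 0.26 ± 0.05 and 0.15 ± 0.05 (adjusted p = 0.00117 and 0.0315). *Eef1b2*, the exchange factor of elongation factor 1, was lower in the cortex by -0.17 ± 0.06 and -0.22 ± 0.06 (limma, adjusted p = 0.0391 and 0.0142). *Eef1a1*, *Eef1g* and *Pabpc1* were not called in these contrasts. At an unadjusted p under 0.05, mitochondrial ribosomal protein genes were higher in PianpKO mice for 8, 5, 0 and 0 and lower for 0, 5, 6 and 1 of 76 in the 4 regions, where 8.07%, 11.2%, 5.08% and 5.55% of all probe sets passed in either direction. By genotype, none of these 13, of 24 ribosome biogenesis factors, of 15 genes of the mTOR pathway or of 76 mitochondrial ribosomal proteins passed after adjustment. *Fbl*, the methyltransferase of box C/D small nucleolar RNPs, was higher in PianpKO mice by 0.68 ± 0.21 (SE) in the amygdala, 0.65 ± 0.25 in the cortex and 0.52 ± 0.23 in the hypothalamus (limma, adjusted p = 0.54, 0.355 and 0.878). *Pabpc1*, the poly(A)-binding protein, was lower by -0.28 ± 0.07 in the amygdala, and *Mrpl54* of the mitochondrial ribosome was higher by 0.49 ± 0.11 there (limma, adjusted p = 0.506 and 0.465). *Fau* had differences between -0.11 and 0.09.

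The small nucleolar RNAs within the spans of the members were measured by 19 probe sets. In PianpKO mice 19 (amygdala), 17 (cortex), 12 (hippocampus) and 16 (hypothalamus) of them had the higher mean. Of all 25429 probe sets 12379, 12569, 12708 and 12422 did. The median differences were 0.27, 0.22, 0.04 and 0.11, and 0 passed after adjustment in any region. Control mouse 5 was far below the other controls for some of them. Its *Snord16a* was 9.95 against 11.10 to 11.38 in the amygdala and 9.46 against 10.52 to 11.48 in the cortex. *Snora78* went the other way in the cortex (4.77 against 3.98 to 4.58). The median differences were not recomputed without that mouse. The 80 other small nucleolar RNAs on the array had medians of 0.18, 0.26, 0.03 and 0.12. *Snord73a*, which lies within the span of *Rps3a1* (strands were not compared), was 5.27 ± 0.40 (SD, n = 4) in the control and 6.16 ± 0.29 (SD, n = 5) in the PianpKO amygdala, while *Rps3a1* itself differed there by -0.14. The mean difference of *Snord73a* over the 4 regions was 0.61 ± 0.09 (SE, limma, adjusted p = 0.000749). This contrast was added after the data were seen, and 0.319% of all probe sets passed it. The 39 probe sets with "-ps" symbols, which were not members, had the lower mean in PianpKO mice for 17 (amygdala), 19 (cortex), 30 (hippocampus) and 33 (hypothalamus), with medians of 0.01, 0.006, -0.10 and -0.07. Of all 25429 probe sets 13050, 12860, 12721 and 13007 had the lower mean, and none of the 39 passed by genotype after adjustment. By region, 11 of the 39 were called higher and 1 lower in the control hypothalamus, and 14 lower and 0 higher in the control cortex. In PianpKO mice 5 were higher and 0 lower in the hypothalamus, and 4 lower and 1 higher in the cortex. Of all probe sets 8.18% and 7.18% were higher in the hypothalamus and 9.49% and 9.72% lower in the cortex.

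Some markers of other cells had different means in the 2 genotypes, but none passed after adjustment in any region. All 5 measured striatal neuron markers of 7 were lower in the PianpKO amygdala (median -0.98), and their summed level, 10.50 to 11.31 in the controls, was 9.88 to 10.10 after deletion of *Pianp*. The same 5 were lower in the hippocampus (-0.43) and hypothalamus (-0.56) and higher in the cortex (0.21). At an unadjusted p under 0.05 (limma), 5, 0, 0 and 3 of them passed in amygdala, cortex, hippocampus and hypothalamus. Of all probe sets 8.07%, 11.2%, 5.08% and 5.55% did. The 3 measured blood markers of 4 had a median of 0.36 in the amygdala, and 0 of them had an unadjusted p under 0.05. Their summed levels were 5.34 to 6.94 in the controls and overlapping, at 5.70 to 7.53, in the knockouts. The part of striatal and blood cells in the differences of *Rps28* and *Rpl37* in the amygdala was not tested.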

How the data were processed

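RNA of 39 samples was hybridized to Affymetrix Mouse Gene 2.0 ST arrays. For annotation the authors used a custom chip definition, version 21, with probe sets per Entrez gene, and they normalized by quantiles. The submitters' processing notes name RMA. Deposited values were log2 signals and were taken unchanged. The platform annotation gives 1 symbol for 24675 probe sets and none for 754. All 70 members matched RefSeq GRCm38.p6 by Entrez gene.

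Fits used limma 3.58.1 (R 4.3.3): genotype within each region, and regions within each genotype, where mice recur and entered as a random block (duplicateCorrelation from statmod 1.5.0, consensus correlations of 0.121 in control and 0.0784 in PianpKO mice). The interaction and the mean effect over regions came from a fit over all 8 groups with the mouse as a random block. The mean effect was added after the data were seen. Benjamini-Hochberg adjustment was over 25429 probe sets, with a threshold of 0.05. Fits were tested on simulated data. Exact permutation tests were two-sided. The study's methods name an ANOVA without its groups, and the methods' test was therefore run within a region. Alternatives were the block, array weights, a mean above 5, 1 fit over all groups and leaving out mice. Named were the 3 highest and 3 lowest members per region at an unadjusted p under 0.05, members called in a region in both genotypes, members of the disease, paralog and stalk lists, and up to 4 genes of each other list. Further members were chosen after their values were seen. Members and lists were chosen with earlier results of these data known, as was the limit of 6 for bright members. Scan dates and detection calls were not used here.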

Additional observations from a re-analysis of the deposited data

Results flagged for a closer look

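In 82 groups of 4 or 5 samples of the named members and of the mean over bright members, 5 held a sample far from the others, where chance gives about 1 in 20 groups. *Rps28* in the amygdala of control mouse 3 was 4.21, with the other 3 between 3.84 and 3.89. *Rpl4* in the cortex of PianpKO mouse 2 was 11.53, with the others between 11.43 and 11.45. *Rpl6l* in the hypothalamus of PianpKO mouse 4 was 8.95, below the others at 9.09 to 9.13. *Rpl8* in the amygdala of control mouse 2 was 10.01, with the others between 9.81 and 9.84. The mean over bright members in the cortex of control mouse 2 was 0.077, above the others at -0.086 to -0.046. No member had non-overlapping genotypes in opposite directions in different regions, and 0 interactions passed after adjustment.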

How the results depend on the processing

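The counts of members called by genotype were 0 in 115 alternatives and differed in 3. The exceptions were 1 member in the cortex without control mouse 2, and the mean effect over regions with 2 members without a block and 0 to 2 when 1 mouse was left out (2 without control mouse 2). The counts within a region under leaving out 1 mouse were 0 to 0, except for 0 to 1 in the cortex. The medians over members moved by less than the spread of 0.0511 between replicates in all 83 alternatives. The replicate number as a block, which pairs no animals (8 of 19 same-numbered pairs correlated above 0.1, from -0.0933 to 0.238), gave 0 members in each region and medians of 0.03, 0.002, -0.02 and -0.01. Counts at an unadjusted p under 0.05 were 3, 2 and 3 in amygdala, cortex and hypothalamus with a mean above 5, and were 11 and 13 in cortex and hypothalamus with the replicate block. The region counts were less stable, with 59 alternatives within 1.5 times the reported count and 19 outside. Calls of the F test ran from 3 to 9 in control (3 without mouse 1) and from 1 to 7 in PianpKO mice (1 without mouse 1, 2 without mouse 5) when 1 mouse was left out, and were 10 in PianpKO mice with a mean above 5 and 2 without both mice numbered 5, a setting chosen after seeing the data. *Rpl8* kept its calls in all alternatives, whereas *Rpl4*, *Rpl6l* and *Rpl21* lost theirs in 21. Calls of a higher hypothalamus ran from 3 to 7 in control (3 without mouse 1, 4 without mouse 5) and from 1 to 4 in PianpKO mice (1 without mouse 1, 2 or 5), and were 4 and 1 without both mice numbered 5. Calls of a lower cortex ran from 2 to 5 in control (5 without mouse 4) and from 1 to 4 in PianpKO mice (1 without mouse 1), were 5 and 6 with array weights, 6 and 5 with a mean above 5, and 5 in PianpKO mice with the mouse as a fixed block. With array weights the median of the bright members in the control hypothalamus was 0.03. Where not given, the cause was not tested. No direction of a named member reversed. With 4 or 5 mice per group and low signal of most members, small differences were not detectable.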
